A study of Mus musculus with 8 samples.

Results

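Lymphoid homing chemokines and receptors were followed as 7 genes, chosen by symbol from the 32287 gene rows of the deposited count table, with 1 row found for each symbol. The ligands were Cxcl13, Cxcl16 and Ccl24, and the receptors were Cxcr5, Ccr7, Cxcr4 and Cxcr6. All 7 are described here by organ, by cell class and by the marrow that the mouse had received.

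The stroke-marrow mice were Mx1Cre:c-Myb fl/fl recipients, depleted of their own marrow, that had received bone marrow from stroke donors (2 mice). The control-marrow mice had the same recipient genotype and the same depletion and had received marrow from control donors (2 mice). Mx1-Cre is driven by an interferon-inducible promoter, so that loss of c-Myb, a transcription factor required by blood stem and progenitor cells, is not confined to a single cell type, and resident cells of recipient origin can remain in the tissues. Age, sex and the interval after transplantation were not given in the sources used here. CD45+CD11b+ cells were sorted from heart and blood, tagged by organ with antibody-linked DNA barcodes (hashtags), pooled for each mouse and sequenced as droplet-based single-cell RNA libraries. The groups rest on reading the number that ends each cell barcode as the sample number in the labels, which no source states outright.

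The organ of each barcode was read from 1 of 2 tags of 15 bases. They are printed because every heart and blood value below depends on them, and the capitals mark the whole tag.
heart tag: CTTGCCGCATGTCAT
blood tag: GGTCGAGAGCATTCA

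Chemokines are small secreted or membrane-bound proteins that steer leukocytes through G protein-coupled receptors. Cxcl13 draws Cxcr5-bearing B cells and follicular helper T cells into lymphoid follicles, and Ccr7 brings naive lymphocytes and migrating dendritic cells to the zones where Ccl19 and Ccl21 are made. Cxcr4, the receptor of Cxcl12, retains neutrophils and progenitors in bone marrow and marks ageing neutrophils. Cxcl16 is a transmembrane chemokine that binds Cxcr6 on T and NK cells and also acts as a scavenger receptor. Ccl24 (eotaxin-2) attracts eosinophils through Ccr3 and is made by alternatively activated macrophages.

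The 4 libraries held 3303 and 3084 barcodes in stroke-marrow mice, against 2020 and 2723 in control-marrow mice, with 10059365 to 16482961 gene UMIs (unique molecular identifiers, 1 per captured transcript) and medians of 3996 to 4681.5 UMIs per barcode. After filtering, 9480 of 11130 barcodes remained, 4781 from heart and 4699 from blood, and 14 barcode strings occurred in more than 1 library. The libraries differed in composition. B cell-like barcodes made up 6.14% and 76.5% of blood barcodes in stroke-marrow mice, against 10.5% and 6.22% in control-marrow mice, so that stroke replicate 2 stood apart. Heart dendritic cell-like barcodes made up 1.62% and 2.33% in stroke-marrow mice, against 10.2% and 4.47% in control-marrow mice. Control replicate 1 held 473 UMIs of the Y-linked Ddx3y and 1 of Xist, whereas the other 3 mice held 1 to 3 and 5171 to 10683. Barcodes with markers of B, T, NK, endothelial and other cells passed the CD11b sort. Cell classes were rebuilt from markers, each class is named as cell-like for that reason, and the 7 genes took no part in the clustering. Levels are given as CPM, the UMIs of a gene in the summed barcodes of a mouse, organ and class, scaled by the total UMIs of that sum.

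Cxcl13 was almost confined to heart macrophages. Of its 2557 UMIs, 2554 came from heart and 3 from blood. Macrophage-like barcodes (Lyve1, Folr2, Cd163 and complement C1q genes) held 90.7% of them. A heart cluster called Ccl12-led here, after a leading gene that ranked behind Cadm1, Creb5 and Col14a1, held 8.68%. That cluster, of 1020 barcodes, expressed all 12 macrophage markers but stayed unnamed, because Cadm1, a marker fixed for type 1 dendritic cells, was among its leading genes. The Cxcl13 level in macrophage-like barcodes was 365 and 577 CPM in stroke-marrow mice, against 477 and 275 CPM in control-marrow mice, and it averaged 423 ± 132 CPM over all mice (SD, n = 4). The mean of the Ccl12-led cluster was 38.8 ± 31.3 CPM (SD, n = 4) and its range did not overlap that of the macrophage-like class. No other class with at least 20 barcodes in every mouse exceeded a mean of 2.20 CPM. Pooled over mice, 133 unnamed heart barcodes held 3.60 CPM. Heart dendritic, heart neutrophil, blood NK, blood dendritic, blood neutrophil and blood nonclassical monocyte barcodes held no Cxcl13 UMI.

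Within the macrophage-like class, Cxcl13 was carried by few barcodes. The class consisted of a Lyve1-led cluster of 954 barcodes and a cluster of 116 barcodes whose leading genes were Cxcl13, Cd207 (langerin) and Vsig4, the complement receptor of resident macrophages. In the small cluster 65 of 116 barcodes (56.0%) had a Cxcl13 UMI and together held 2043 UMIs. A few barcodes dominated, since 38 with at least 10 UMIs held 1946 of them and the highest barcodes held 292 and 234. By mouse, the small cluster held 715 and 850 Cxcl13 UMIs in 38 and 32 barcodes of stroke-marrow mice, against 256 and 222 UMIs in 15 and 31 barcodes of control-marrow mice. In the Lyve1-led cluster only 34 of 954 barcodes had a Cxcl13 UMI, and 1 mouse, control replicate 2, contributed 207 of its 276 UMIs. In the Ccl12-led cluster 32 of 1020 barcodes had one.

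The small cluster also differed from its neighbours in other genes, which are given as a description since they took part in the clustering. Cd207 averaged 1814 ± 416 CPM there and 1.90 ± 3.79 CPM in the Lyve1-led cluster (SD, n = 4 mice). Vsig4 averaged 1601 ± 619 CPM against 108.5 ± 36.4 CPM, and Lyve1 averaged 414 ± 245 CPM against 1363 ± 125 CPM. The class II gene H2-Aa lay between the Lyve1-led cluster (1105 ± 297 CPM) and the Ccl12-led cluster (4883 ± 475 CPM), at 3226 ± 1238 CPM. Ccr2, which marks monocyte-derived cells, was 40.3 ± 23.5 CPM in the small cluster, 32.8 ± 4.34 CPM in the Lyve1-led cluster and 174 ± 124 CPM in the Ccl12-led cluster. Ccl12 itself was 345 ± 183 CPM in the Ccl12-led cluster and 198 ± 95.5 CPM in the Lyve1-led cluster, with overlapping ranges.

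**Figure D1:**
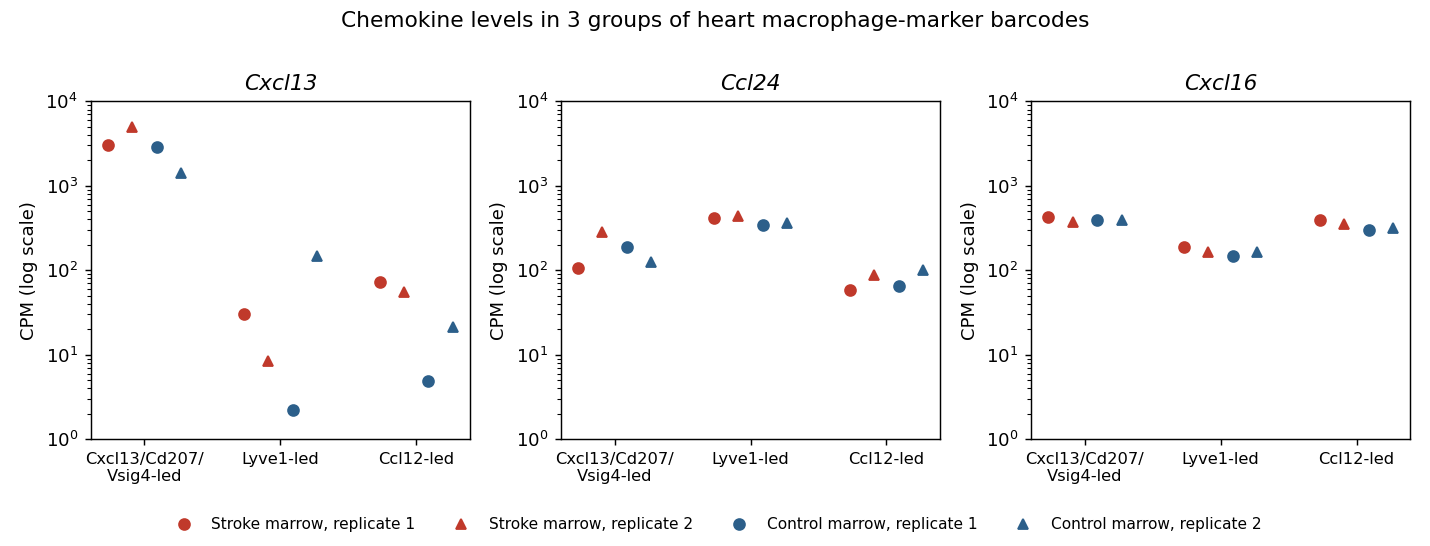
CPM of Cxcl13, Ccl24 and Cxcl16 (log axis) in 3 heart macrophage-marker clusters, with 1 point per mouse. Cxcl13 was highest in the Cxcl13/Cd207/Vsig4-led cluster (1407 to 4902 CPM), Ccl24 in the Lyve1-led cluster (344 to 441 CPM), and Cxcl16 was lowest in the Lyve1-led cluster (147 to 191 CPM).

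Ccl24 was also a heart macrophage transcript, with 2646 of 2660 UMIs from heart and 80.4% of all UMIs in macrophage-like barcodes. Its level there was 380 and 422 CPM in stroke-marrow mice, against 319 and 342 CPM in control-marrow mice. The mean was 366 ± 45.3 CPM in macrophage-like barcodes and 78.1 ± 19.7 CPM in the Ccl12-led cluster (SD, n = 4), and the ranges did not overlap. In contrast to Cxcl13, Ccl24 was spread over many barcodes, of which 607 of 954 in the Lyve1-led cluster had a UMI and the highest held 35. In the Cxcl13/Cd207/Vsig4-led cluster Ccl24 was 177 ± 79.4 CPM, against 391 ± 44.1 CPM in the Lyve1-led cluster. Within the small cluster 53.8% of Cxcl13-positive barcodes also had a Ccl24 UMI, against 19.6% of the others. The same shares were 70.6% against 63.4% in the Lyve1-led cluster and 18.8% against 17.3% in the Ccl12-led cluster. Depth was not matched for these shares. Its eosinophil receptor Ccr3 had 15 UMIs among all kept barcodes. Among the classes with at least 20 barcodes in every mouse, blood neutrophils came next for Ccl24 at 6.34 ± 10.9 CPM, which rested on 4 UMIs in 2 mice. Pooled over mice, Ccl24 was also 104 CPM in 133 unnamed heart barcodes. It was 36.9 CPM in 16 heart cardiomyocyte-like barcodes, from 2 UMIs.

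Cxcl16 had the broadest range of the ligands. Of 3280 UMIs, 3204 came from heart, 51.0% from the Ccl12-led cluster and 34.6% from macrophage-like barcodes. The Ccl12-led cluster held 394 and 349 CPM in stroke-marrow mice, against 300 and 317 CPM in control-marrow mice (mean 340 ± 41.1, SD, n = 4). Macrophage-like barcodes followed with 195 ± 14.5 CPM and heart type 2 dendritic cell-like barcodes with 87.1 ± 11.5 CPM, and these first 3 of the classes with at least 20 barcodes in every mouse did not overlap. Pooled over mice, Cxcl16 was also 162 CPM in 133 unnamed heart barcodes and 99.5 CPM in 21 heart fibroblast-like barcodes. Heart classical monocyte-like barcodes (35.6 ± 18.9 CPM) and blood type 2 dendritic cell-like barcodes (20.9 ± 7.49 CPM) came next, with overlapping ranges. Heart B and NK cell-like barcodes held no Cxcl16 UMI. Within the macrophage-like class Cxcl16 was 395 ± 22.2 CPM in the Cxcl13/Cd207/Vsig4-led cluster, against 167 ± 18.3 CPM in the Lyve1-led cluster, without overlap between mice.

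Cxcr5, the receptor of Cxcl13, was the B cell receptor of the set. Blood B cell-like barcodes held 62.0% and heart B cell-like barcodes 25.9% of its 2367 UMIs. The heart B cell level was 165 and 267 CPM in stroke-marrow mice, against 171 and 180 CPM in control-marrow mice, with a mean of 196 ± 48.1 CPM (SD, n = 4). The blood B cell level was 162 and 204 CPM in stroke-marrow mice, against 197 and 181 CPM in control-marrow mice, with a mean of 186 ± 18.8 CPM. The organs overlapped. A blood T cell-like group of 69 barcodes also carried Cxcr5, in 16 barcodes.

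Among the classes with at least 20 barcodes in every mouse, neutrophils ranked next for Cxcr5, in both organs. The smaller blood T cell-like group, pooled over mice, held 73.2 CPM. Heart neutrophil-like barcodes held 41.5 and 83.3 CPM in stroke-marrow mice, against 32.6 and 96.2 CPM in control-marrow mice, and blood neutrophil-like barcodes held 47.4 and 90.2 CPM, against 34.1 and 58.7 CPM. These ranges did not overlap those of B cells above or of any class below, where the next mean was 3.01 ± 2.47 CPM in heart dendritic cells. Relative to B cells of the same organ and mouse, the neutrophil Cxcr5 level was 19.0% to 53.6% in heart and 17.3% to 44.2% in blood. The B cell markers Cd79a, Cd79b, Ms4a1, Ighd, Pax5 and Ebf1 reached at most 4.09% of the B cell level in neutrophils, and Ighm 1.98% to 6.31%. After thinning every barcode to 1000 UMIs, 6.28% of heart neutrophils (95% Clopper-Pearson interval 4.18% to 9.004%) and 4.07% of blood neutrophils (2.95% to 5.46%) had a Cxcr5 UMI, against 0 of 711 heart nonclassical monocytes (upper bound 0.517%). Unthinned, the neutrophil shares were 11.9% in heart and 7.26% in blood. Median depth was 2156 UMIs in heart neutrophils and 3240 UMIs in heart nonclassical monocytes. The Cxcr5 gene shares 110 bases with Bcl9l on the other strand, and the sources used here do not state whether counting used strand.

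Ccr7 marked B cells, the few T cell-like barcodes and a minority of heart dendritic cells. Its level in heart type 2 dendritic cell-like barcodes was 92.2 and 61.6 CPM in stroke-marrow mice, against 177 and 73.9 CPM in control-marrow mice (mean 101 ± 52.0, SD, n = 4). Blood B cells averaged 87.1 ± 18.3 CPM and heart B cells 78.3 ± 27.2 CPM, and the first 3 classes overlapped. T cell-like barcodes, too few in each mouse to be compared, carried Ccr7 in 32 of 69 in blood and 5 of 13 in heart. Pooled over mice, they held 137 CPM in blood and 159 CPM in heart. Blood type 2 dendritic cells held 0 UMIs in the 58 and 24 barcodes of stroke-marrow mice. In control-marrow mice they held 10 UMIs in 1 of 58 barcodes and 18 UMIs in 2 of 79 barcodes, so this contrast rests on very few barcodes.

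The heart dendritic Ccr7 came from 25 of 182 barcodes, of which 1 of 24 and 3 of 29 were in stroke-marrow mice, against 10 of 66 and 11 of 63 in control-marrow mice. These barcodes held 17 and 12 UMIs in stroke-marrow mice, against 89 and 30 in control-marrow mice, and a barcode of control replicate 1 held 39. Pooled over mice, the Ccr7-positive barcodes also had higher values of the migratory dendritic cell markers Fscn1, Cacnb3, Nudt17, Socs2 and Il4i1. The remaining marker of that list, Cd200, had 0 UMIs in them and 1 in the others. Fscn1, an actin-bundling protein of migrating dendritic cells, was 196 CPM in them and 13.6 CPM in the other heart type 2 dendritic cells. Cacnb3 had 14 UMIs against 0. Outside that marker list, Ccl22 was 114 CPM against 1.81 CPM, and Relb, an NF-kB subunit of dendritic cell maturation, was 554 CPM against 108 CPM. Of the 7 type 2 dendritic cell markers, 5 had lower values in the Ccr7-positive barcodes, among them the lectin gene Cd209a at 141 CPM against 561 CPM. The other 2 had higher values, with Flt3 at 190 CPM against 139 CPM and H2-DMb2 at 244 CPM against 138 CPM. These pooled values carry no test, since barcodes of a mouse are not replicates.

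Ccr7 also varied among the B cell clusters, which is given as a description. The cluster led by Fcer2a, Ighd and Cr2, genes of follicular and marginal zone B cells, held 165 ± 93.9 CPM in heart and 155 ± 40.2 CPM in blood (SD, n = 4 mice). The cluster led by Mzb1 held 62.0 ± 13.1 CPM in heart and 59.8 ± 20.9 CPM in blood. The remaining cluster, led by Agbl1, Zcwpw1 and Sox5, held 18.7 ± 10.98 CPM in heart and 30.0 ± 17.8 CPM in blood. It held as few as 16 heart and 7 blood barcodes in a mouse, and in blood it overlapped the Mzb1-led cluster. Cxcr5 varied less over the same clusters, with means of 172 to 239 CPM in heart and 143 to 209 CPM in blood.

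Cxcr4 was the most widely distributed receptor and was found in all 14 organ and class groups. Heart neutrophils held 125 and 132 CPM in stroke-marrow mice, against 188 and 64.1 CPM in control-marrow mice (mean 127 ± 50.5, SD, n = 4). Blood neutrophils averaged 101.5 ± 40.9 CPM, heart nonclassical monocytes 89.8 ± 25.5 CPM, blood nonclassical monocytes 58.4 ± 17.5 CPM and heart classical monocytes 39.9 ± 12.4 CPM. The lowest means were 8.20 ± 3.58 CPM in blood NK cells and 5.66 ± 5.43 CPM in blood type 2 dendritic cells. Neighbours in this order overlapped except at a single step, between heart type 2 dendritic cells (18.2 ± 3.40 CPM) and blood NK cells. Its ligand Cxcl12 had 524 UMIs, of which 522 were from heart.

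Cxcr6, the receptor of Cxcl16, was close to absent from the classes that could be compared. It had 43 UMIs in all, and no class with at least 20 barcodes in every mouse averaged more than 2.85 CPM. T cell-like barcodes held 13 of these UMIs in 6 of 13 heart barcodes and 11 in 9 of 69 blood barcodes. The Cxcr6 gene lies wholly within Fyco1 on the other strand, over 5286 bases, so these few UMIs are uncertain.

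**Figure D2:**
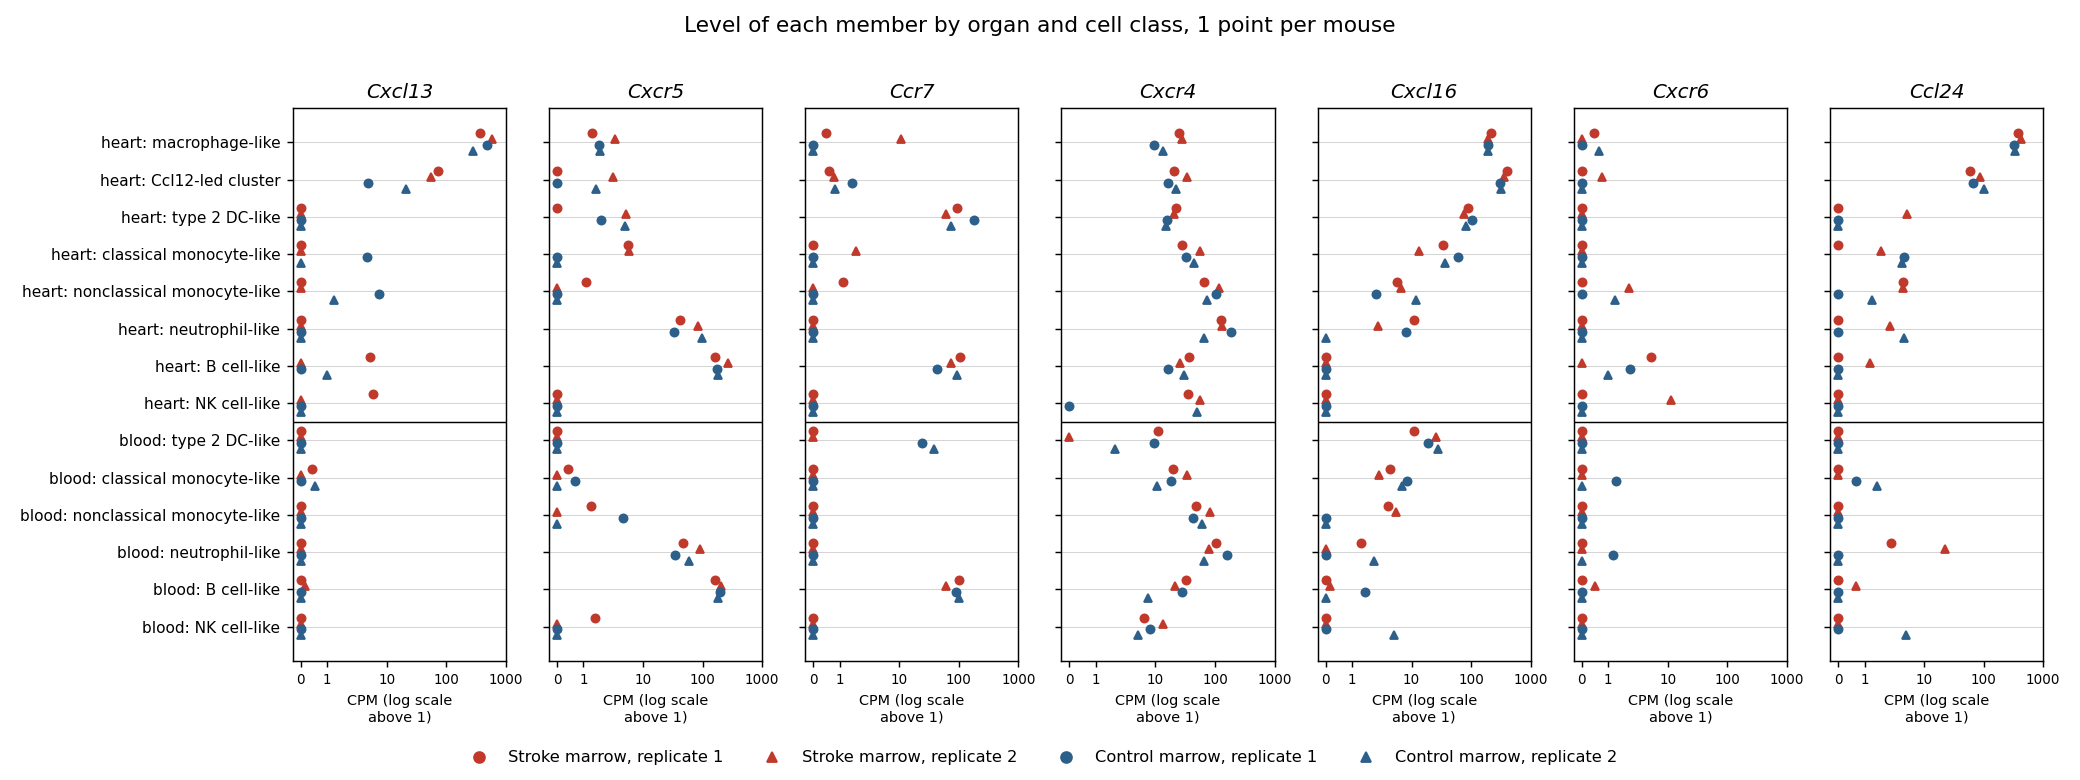
CPM of each of the 7 genes (log scale above 1) in 8 heart and 6 blood classes, with 1 point per mouse. Cxcl13, Cxcl16 and Ccl24 sat in heart macrophage-marker groups, Cxcr5 in B cells and neutrophils, Ccr7 in B cells and heart type 2 dendritic cells, and Cxcr4 in every group, while no group averaged more than 2.85 CPM of Cxcr6.

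On the reference annotation (GRCm38) the genes lie on 5 chromosomes and are protein coding. Cxcl13 is at chr5:95956951-95961068 on the plus strand and Ccl24 at chr5:135569937-135573049 on the minus strand. Cxcl16 is at chr11:70453983-70459984 and Ccr7 at chr11:99144196-99155077, both on the minus strand. Cxcr5 is at chr9:44511787-44561877 on the minus strand and Cxcr6 at chr9:123806475-123811760 on the plus strand. Cxcr4 is at chr1:128588199-128592293 on the minus strand. Cxcl16 shares 552 bases with Zmynd15 on the other strand.

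Heart was next compared with blood of the same mouse within each of 6 classes found in both organs, with edgeR's quasi-likelihood test on summed UMIs, the mouse as a block and Benjamini-Hochberg adjustment over all genes tested. Cxcl13, Ccl24 and Cxcr6 passed the low-count filter in none of the 6, and their UMIs in shared classes were too few to test. The other 4 genes gave 9 tests, of which 4 had an adjusted p under 0.05, and in all 4 the heart was higher in 4 of 4 mice. Over the same 6 comparisons, 13.03% of the tests of all genes were called, 8.81% higher and 4.23% lower in heart. A gene that is low in blood passes the filter through its heart values, so the share called is not a property of all 7 genes.

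Cxcl16 was higher in heart than in blood type 2 dendritic cells. The heart level was 86.8 and 77.0 CPM in stroke-marrow mice and 103 and 81.3 CPM in control-marrow mice, against blood levels of 11.1, 26.1, 19.0 and 27.3 CPM in the same mice. The organs did not overlap. The log2 fold change was 2.17 (SE 0.32, edgeR quasi-likelihood adjusted p = 0.000885). Ccr7 was higher in heart in the same class, with 92.2, 61.6, 177 and 73.9 CPM in heart against 0, 0, 23.7 and 37.8 CPM in blood, and a log2 fold change of 2.64 (SE 0.54, edgeR adjusted p = 0.00937). These organs did not overlap either. The Ccr7 UMIs came from 25 of 182 heart and 3 of 219 blood barcodes of the class. Whether the fold reflects more positive barcodes or a higher level in each was not tested. The Ccr7 adjusted p was 0.0525 with DESeq2, 0.0529 without stroke replicate 1 and 0.0941 without control replicate 1. Ccr7 had a value in 12 alternatives, against 13 for Cxcl16. At clustering resolution 2, a separate cluster of 50 barcodes was named migratory dendritic cell, with Fscn1 and Ccr7 among its leading genes. The main clustering named no such cluster. Of the genes tested in type 2 dendritic cells, 6.1% were called in either direction, 5.24% higher and 0.858% lower in heart.

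Macrophage transcripts were present in these dendritic cell sums. The 12 macrophage markers summed to 1085 to 1416 CPM in heart dendritic cells of stroke-marrow mice and 469 to 663 CPM in those of control-marrow mice, against 200 to 1183 CPM in blood. Without barcodes that held a UMI of C1qa, C1qb or C1qc, Cxcl16 was 98.3, 78.0, 113 and 69.8 CPM in heart, against 13.1, 34.0, 19.5 and 30.3 CPM in blood. Without them Ccr7 was 0 and 44.5 CPM in heart of stroke-marrow mice and 201 and 88.0 CPM in heart of control-marrow mice. The only Ccr7-positive heart dendritic barcode of stroke replicate 1 was among those left out. Fewer than 20 barcodes then remained in some sums, and no test was made.

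Cxcr4 was higher in heart than in blood in both monocyte classes. In classical monocytes it was 28.0 and 55.2 CPM in heart of stroke-marrow mice and 32.1 and 44.5 CPM in heart of control-marrow mice, against 19.98, 33.8, 18.5 and 10.7 CPM in blood of the same mice. The log2 fold change was 1.18 (SE 0.30, edgeR adjusted p = 0.00514). In nonclassical monocytes it was 64.1, 118, 105 and 72.6 CPM in heart, against 47.3, 81.8, 43.1 and 61.4 CPM in blood. The log2 fold change was 0.71 (SE 0.19, edgeR adjusted p = 0.00497). The organs overlapped in both classes across mice, but the heart value was higher within each mouse. Of all genes tested, 16.6% were called in classical monocytes (11.8% higher and 4.76% lower in heart) and 16.5% in nonclassical monocytes (10.5% higher and 6.04% lower). For classical monocytes the adjusted p was 0.0562 with DESeq2 and 0.172 without control replicate 2. For nonclassical monocytes it was 0.206 with DESeq2 and 0.105 without control replicate 1. Different clusters held most of each monocyte class in the organs, with 92.2% of heart classical monocytes in a cluster that held no blood barcode.

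Neutrophil Cxcr4 (log2 fold change 0.51, SE 0.19, edgeR adjusted p = 0.0769) and neutrophil Cxcr5 (0.38, SE 0.27, adjusted p = 0.369) were not called between organs, where 22.1% of neutrophil genes were (14.8% higher and 7.26% lower in heart). In B cells the log2 fold changes were 0.31 for Cxcr4 (SE 0.30, edgeR adjusted p = 0.582), 0.20 for Cxcr5 (SE 0.13, adjusted p = 0.357) and -0.04 for Ccr7 (SE 0.19, adjusted p = 0.933), where 10.4% of genes were called (6.07% higher and 4.3% lower in heart). In NK cells, where 7.64% of genes were called (5.47% higher and 2.17% lower in heart), no member passed the filter.

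**Figure D3:**
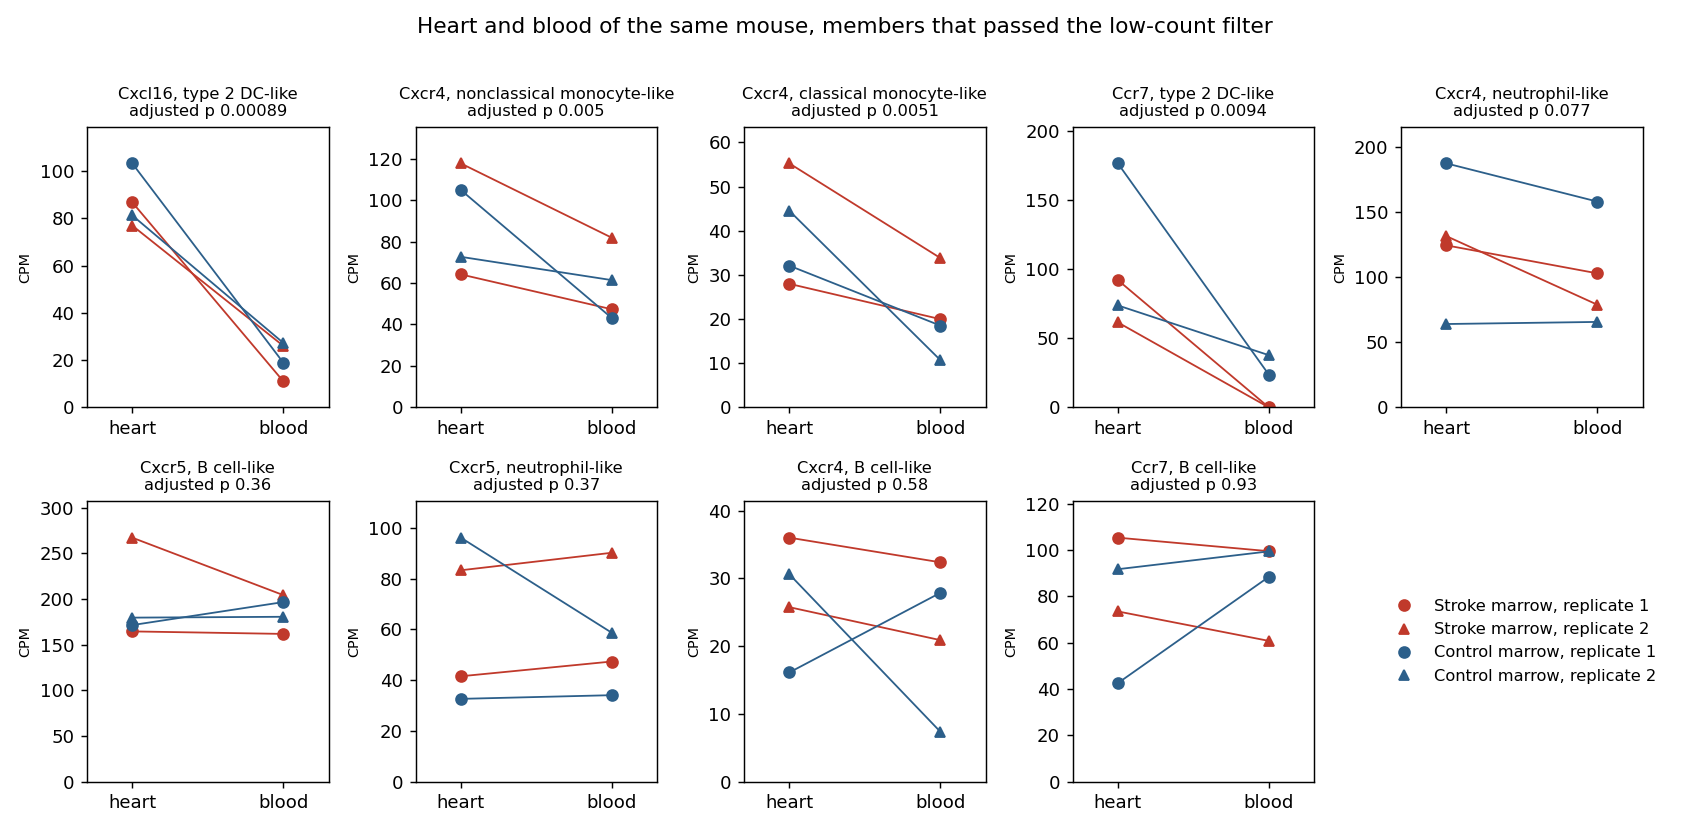
CPM in heart (left) and blood (right) for the 9 member and class pairs tested, with a line per mouse and the edgeR adjusted p above each panel. All 4 lines fall towards blood in the 4 panels with an adjusted p under 0.05, and the lines cross or run level in the B cell panels.

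Stroke marrow was compared with control marrow in 16 sets of sums, made of 8 heart classes, 6 blood classes and all barcodes of each organ. In this design of 2 mice against 2, the 7 genes gave 37 tests with edgeR's quasi-likelihood method and 0 adjusted p-values under 0.05. Unadjusted, 7 of the 37 had p under 0.05, where 4.46% of all tests over the 16 sets did. Of the 7, 5 were over all heart barcodes (7.91% of all genes there), 1 in the Ccl12-led cluster (3.30%) and 1 in macrophage-like barcodes (3.82%). DESeq2 called 1, Cxcl13 over all heart barcodes (adjusted p = 0.00181). Calls were rare over all genes. In heart they were 0.0559% of the genes tested in B cells, 0.0437% in type 2 dendritic cells, 0.0477% in nonclassical monocytes and 0% in NK cells, classical monocytes and neutrophils. In blood they were 0.0652% in B cells, 0.0229% in classical monocytes, 0.0209% in neutrophils, 0.035% in nonclassical monocytes and 0% in NK cells, type 2 dendritic cells and over all barcodes. Groups that did not overlap were common, from 25.5% of genes over all blood barcodes and 28.3% in blood type 2 dendritic cells to 38.5% in heart type 2 dendritic cells and 41.1% over all heart barcodes. P-values here measure the spread between these mice, and each group has only 2.

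Over all heart barcodes, 6 of the 7 genes passed the filter, and in 5 the groups did not overlap, against that background of 41.1%. Called genes were 0.0242% of those tested. Cxcl13 was 131 and 167 CPM in stroke-marrow mice, against 72.7 and 73.8 CPM in control-marrow mice (log2 fold change 1.03, SE 0.15, edgeR adjusted p = 0.521). Ccl24 was 139 and 143 CPM, against 60.6 and 108 CPM (0.74, SE 0.25, adjusted p = 0.599). Cxcl16 was 186 and 143 CPM in stroke-marrow hearts, against 101 and 123 CPM in control-marrow hearts (0.55, SE 0.17, edgeR adjusted p = 0.576). Cxcr4 was 38.3 and 47.3 CPM, against 31.4 and 30.4 CPM (0.47, SE 0.16, adjusted p = 0.595). Ccr7 was 8.93 and 16.8 CPM in stroke-marrow hearts, against 38.0 and 20.5 CPM in control-marrow hearts (-1.17, SE 0.41, edgeR adjusted p = 0.605). Cell makeup moved with these values. Macrophage-like and Ccl12-led barcodes together were 48.6% and 46.7% of heart barcodes in stroke-marrow mice, against 30.9% and 41.9% in control-marrow mice, and B cells were 4.11% and 12.2%, against 21.1% and 12.8%. In sums over all barcodes, more cells of a type and more RNA per cell cannot be told apart.

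Within macrophage-like barcodes the log2 fold changes of the ligands were 0.37 for Cxcl13 (SE 0.23, edgeR adjusted p = 1.00), 0.28 for Ccl24 (SE 0.15, adjusted p = 1.00) and 0.11 for Cxcl16 (SE 0.15, adjusted p = 1.00). The groups overlapped for Cxcl13 and Cxcl16 and not for Ccl24, where 32.4% of all genes tested in the class did not overlap and 0.0108% were called. Cxcr4 in the same class was 25.1 and 28.1 CPM in stroke-marrow mice, against 9.28 and 13.5 CPM in control-marrow mice (1.11, SE 0.32, unadjusted p = 0.00335, edgeR adjusted p = 0.892). In the Ccl12-led cluster Cxcl13 was 73.3 and 55.9 CPM in stroke-marrow mice, against 4.87 and 21.2 CPM in control-marrow mice, without overlap. That was a log2 fold change of 2.08 (SE 0.38, edgeR adjusted p = 0.478), which ranged from 1.59 to 3.72 over the alternatives, highest without control replicate 2 and 3.17 with the stricter cell filter. The share of positive barcodes was 3.59% (12 of 334) and 2.68% (8 of 298) in stroke-marrow mice, against 2.88% (3 of 104) and 3.17% (9 of 284) in control-marrow mice. In stroke-marrow mice 3 barcodes of each held at least 10 UMIs and together 88 of 121 and 56 of 72 UMIs, and control-marrow mice had 0 such barcodes. With a mouse left out, a group held a single mouse, and no p-value is given for those fits. With all mice included, groups did not overlap in 31.8% of the genes tested in that cluster, and 0% were called. Cxcl16 there had a log2 fold change of 0.27 (SE 0.15, edgeR adjusted p = 1.00) and Ccl24 one of -0.24 (SE 0.26, adjusted p = 1.00).

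Among the receptors, Cxcr5 had a log2 fold change of 0.32 in heart B cells (SE 0.21, edgeR adjusted p = 1.00) and 0.07 in blood B cells (SE 0.21, adjusted p = 0.980). Ccr7 had -0.76 in heart type 2 dendritic cells (SE 0.44, edgeR adjusted p = 0.697) and -0.29 in blood B cells (SE 0.26, adjusted p = 0.886). Cxcr4 in neutrophils had 0.20 in heart (SE 0.42, edgeR adjusted p = 0.998) and -0.19 in blood (SE 0.38, adjusted p = 1.00). In all 6 the groups overlapped. Over all blood barcodes Cxcr5 was 20.4 and 173 CPM in stroke-marrow mice, against 35.7 and 18.7 CPM in control-marrow mice (1.91, SE 1.07, edgeR adjusted p = 0.965). Ccr7 was 10.8 and 55.4 CPM, against 16.7 and 12.4 CPM (1.26, SE 0.83, adjusted p = 0.965). The high value of each was stroke replicate 2, the mouse with 76.5% B cells in blood, and without it the log2 fold changes were -0.41 for Cxcr5 and -0.42 for Ccr7. Without stroke replicate 1, stroke replicate 2 alone made up the stroke group, and no p-value is given for that fit. Over the alternatives the log2 fold changes ranged from -0.41 to 2.74 for Cxcr5 and from -0.42 to 2.00 for Ccr7.

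In heart classical monocytes Cxcl16 was 33.6 and 13.3 CPM in stroke-marrow mice, against 59.6 and 36.0 CPM in control-marrow mice (log2 fold change -1.04, SE 0.51, edgeR adjusted p = 0.895), where groups did not overlap in 35.1% of all genes. Over all blood barcodes it was 3.31 and 1.09 CPM in stroke-marrow mice, against 4.87 and 7.34 CPM in control-marrow mice (-1.46, SE 0.67, edgeR adjusted p = 0.965), where 25.5% of genes did not overlap. The lowest of these values was again stroke replicate 2. The log2 fold change was -0.87 without that mouse, and -2.39 without stroke replicate 1. Neither pair of groups overlapped, and neither difference passed the test.

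**Figure D4:**
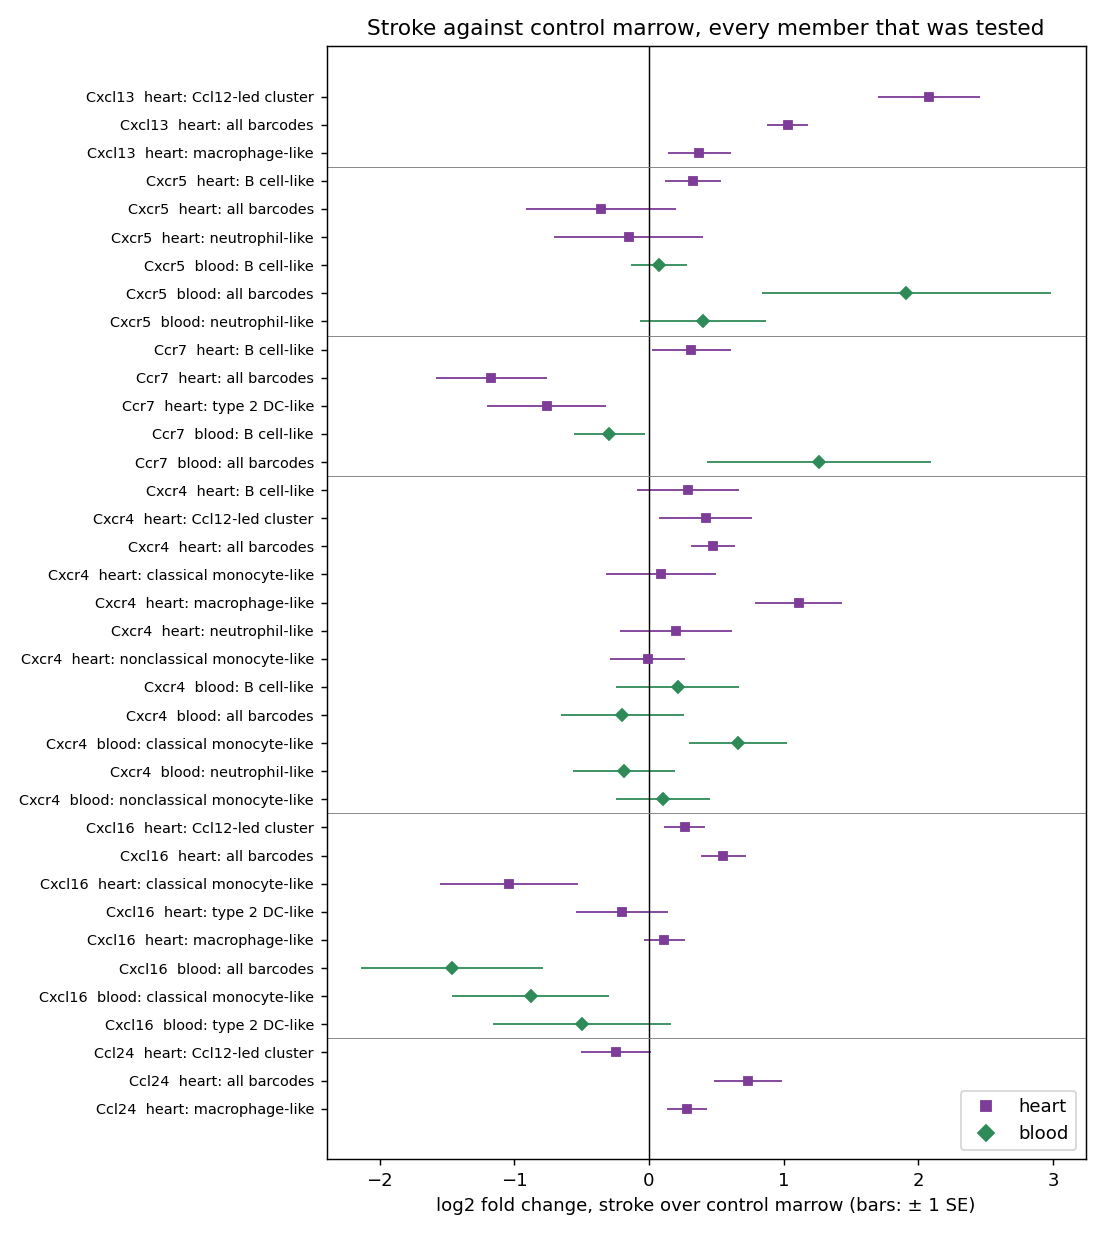
log2 fold change of stroke over control marrow for the 37 member and class tests, with bars of 1 SE. The highest is Cxcl13 in the Ccl12-led cluster at 2.08 and the lowest is Cxcl16 over all blood barcodes at -1.46, and no test had an adjusted p under 0.05.

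The difference of the stroke effect between organs was tested in 10 member and class pairs with an interaction term, and edgeR called 0 of them, where at most 0.046% of all genes were called in a class. A single unadjusted p was under 0.05 (1 of 10, against 4.67% of all genes tested in its class). It was that of Ccr7 in type 2 dendritic cells (edgeR unadjusted p = 0.0054, adjusted p = 0.931). In blood both stroke-marrow mice held no Ccr7 UMI in that class, and the control-marrow mice held them in only 1 and 2 barcodes, so that no fold is given.

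Other genes of the homing pathway were counted from 4 lists chosen with earlier results of these data known. Over the 6 comparisons of heart with blood, 13.03% of all tests were called, 8.81% higher and 4.23% lower in heart. In them, 27 further homing chemokines and receptors gave 9 tests, with 7 called higher in heart and 0 lower. As with the members, a gene that is low in blood enters through its heart values, so this count is not a property of the list. Ccrl2, an atypical receptor that binds chemerin, was higher in heart in 4 classes. It averaged 130 ± 21.3 CPM in heart and 3.20 ± 1.69 CPM in blood classical monocytes (log2 fold change 5.79, edgeR adjusted p = 4.36e-18), and 261 ± 38.7 CPM in heart and 9.88 ± 8.99 CPM in blood neutrophils (5.48, adjusted p = 4.25e-09). Cxcl10, an interferon-induced ligand of Cxcr3, was 137 ± 75.7 CPM in heart and 4.23 ± 4.76 CPM in blood classical monocytes (4.95, edgeR adjusted p = 1.40e-14). Xcl1, the ligand of Xcr1 on type 1 dendritic cells, was 195 ± 131 CPM in heart and 48.0 ± 15.7 CPM in blood NK cells (1.95, edgeR adjusted p = 1.60e-08). Ccr6, the receptor of Ccl20, was 80.3 ± 25.3 CPM in heart and 56.0 ± 26.9 CPM in blood B cells (0.98, edgeR adjusted p = 0.0307).

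The 15 adhesion and positioning genes gave 56 tests, with 5 called higher and 4 lower in heart, a share near that of all genes. Klf2, a transcription factor of leukocyte trafficking, was called higher in 4 classes. In neutrophils it was 1564 ± 157 CPM in heart and 882 ± 167 CPM in blood (log2 fold change 1.04, edgeR adjusted p = 8.04e-06). The integrin gene Itgb1 was higher in heart neutrophils (0.82, edgeR adjusted p = 0.0425), and Selplg, a ligand used by rolling leukocytes, was lower (-0.50, adjusted p = 0.00677). In B cells S1pr1, the sphingosine phosphate receptor needed to leave lymphoid organs, was lower at 104 ± 16.2 CPM in heart and 198 ± 38.3 CPM in blood (log2 fold change -0.78, edgeR adjusted p = 0.00103). Gpr183, the oxysterol receptor that positions B cells, was 170 ± 41.9 CPM in heart and 265 ± 19.9 CPM in blood (-0.55, edgeR adjusted p = 0.00785).

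The 19 genes of shedding, signalling and desensitisation gave 95 tests, with 7 called higher and 5 lower, again near the share of all genes. Rgs1, which shortens chemokine receptor signalling, was higher in heart NK cells at 529 ± 111 CPM, against 36.0 ± 14.3 CPM in blood (3.98, edgeR adjusted p = 4.61e-34). It was also higher in heart type 2 dendritic cells (4.26, edgeR adjusted p = 7.60e-05) and nonclassical monocytes (3.93, adjusted p = 3.14e-12). The 11 lymphoid tissue organising genes gave 33 tests, with 12 called higher and 3 lower, beside the 8.81% and 4.23% of all tests. Here too, a gene that is low in blood can enter through its heart values, and the list was chosen with earlier results known. This count is therefore not a property of the list. Lta, a lymphotoxin subunit, was higher in heart B cells at 18.2 ± 2.64 CPM, against 4.00 ± 3.59 CPM in blood (2.59, edgeR adjusted p = 0.0011). Relb was higher in heart type 2 dendritic cells at 152 ± 55.8 CPM, against 58.9 ± 25.1 CPM in blood (1.47, edgeR adjusted p = 0.00102). Ltb, the partner of Lta, was higher in heart type 2 dendritic cells (2.58, edgeR adjusted p = 0.00611) and lower in heart neutrophils (-0.70, adjusted p = 0.00574). Between stroke and control marrow none of these lists had a called gene with edgeR's quasi-likelihood test.

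The ligands of Cxcr4 and Ccr7 had few UMIs in leukocyte classes. Of the 524 Cxcl12 UMIs, 452 came from 141 heart endothelial-like barcodes. Ccl19 had 24 UMIs, 17 of them in 21 fibroblast-like barcodes, and Ccl21a had 2, in a heart B cell-like and a macrophage-like barcode.

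The genes whose pattern was most like that of each member were found by Pearson correlation of log2(mean CPM + 1) over the 14 organ and class groups, among 10881 genes. For Cxcl13 they were C6 (r = 0.977), Ifi202b (0.9698) and Ccl8 (0.968). For Ccl24 they were Cpne8 (0.964), Stab1 (0.962) and Tnnc1 (0.959), and for Cxcl16 they were Cttnbp2nl (0.976), Axl (0.967) and Sh3pxd2b (0.967). For Cxcr5 they were Fkbp11 (0.923) and Fam169b (0.905), and for Ccr7 they were Epcam (0.964), Tenm4 (0.964) and H2-Oa (0.961). For Cxcr4 they were Gk (0.927), Dgkh (0.906) and Lars2 (0.897). The groups share 4 mice and their libraries, and the values are a description. Cxcr6, with under 100 UMIs, was not ranked.

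The count table also held transcripts of fluorescent protein transgenes, and the labels do not say which cells carried them. At least 1 such UMI was found in 9.47% to 12.2% of macrophage-like barcodes and 13.1% to 24.0% of Ccl12-led barcodes of a mouse, the groups that held nearly all Cxcl13 and Ccl24. The share was 77.8% or more in heart type 2 dendritic cells, monocytes and neutrophils. B cells, the main holders of Cxcr5 and Ccr7, had 5.88% to 26.2% in heart and 13.1% to 33.7% in blood. Among the 3 heart macrophage-marker clusters, 13 of 131 barcodes with a Cxcl13 UMI also had a transgene UMI (9.92%), against 279 of 1959 without (14.2%).

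**Figure D5:**
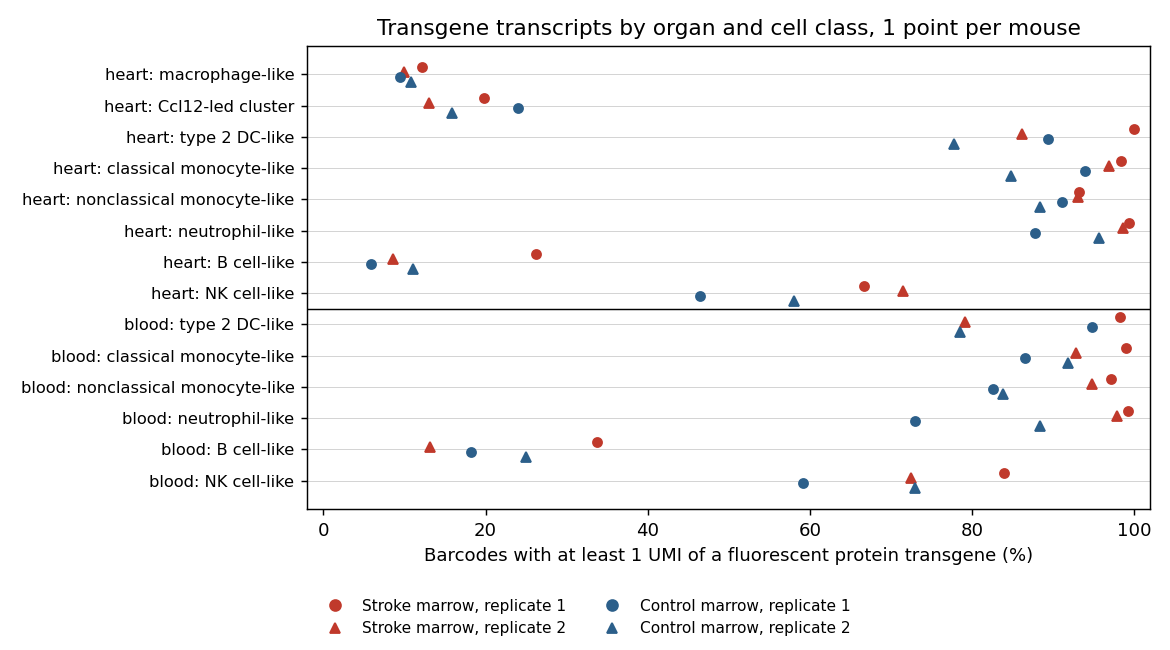
Share of barcodes with at least 1 UMI of a fluorescent protein transgene (percent) in 8 heart and 6 blood classes, with 1 point per mouse. Heart macrophage-like barcodes (9.47% to 12.2%), the Ccl12-led cluster (13.1% to 24.0%) and B cells lie low, and heart dendritic cells, monocytes and neutrophils lie at 77.8% or above.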

How the data were processed

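Droplet-based 3' single-cell RNA libraries with hashtags were made from sorted CD45+CD11b+ cells of 4 mice, 1 library per mouse. The authors deposited raw UMI counts per gene and hashtag for all libraries in 1 matrix. Cell Ranger 7.1.0 and the mm10 build are named in the submitters' processing notes. No value column stayed unmatched (0). The barcode suffixes 1 to 4 were read as the sample numbers in the labels, which is an assumption.

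Barcodes were assigned to heart or blood with HTODemux (Seurat 5.3.0, quantile 0.99) in each library, and 954 hashtag doublets and 101 barcodes without a hashtag call were left out. Barcodes with fewer than 200 genes, or with over 10% of UMIs from mitochondrial genes, were dropped. Within each library the top 6% by Scrublet score (647 barcodes) were removed, because the automatic threshold marked 9 and 3 barcodes in the stroke-marrow libraries and 39 and 180 in the control-marrow libraries. Clustering used scanpy 1.11.5 (2000 variable genes, 30 components, 20 neighbours, Leiden resolution 1) without the 7 genes, the other homing genes, sex-linked, mitochondrial and transgene features. Classes were named from marker lists, and the naming rule was refined after the clusters were seen.

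UMIs were summed per mouse, organ and class where every mouse had at least 20 barcodes. edgeR 4.0.16 (R 4.3.3) tested these sums with TMM scaling, its expression filter, the quasi-likelihood test and Benjamini-Hochberg adjustment at 0.05, on the counts as deposited. DESeq2 1.42.0 was an alternative. Heart against blood had the mouse as a block. The edgeR step was tested on simulated data with known changes. SE is the log2 fold change divided by the square root of F. CPM is a gene's UMI count scaled by the total UMIs of the sum. Depth was 15771782 and 16482961 UMIs in stroke-marrow libraries and 10059365 and 12509034 in control-marrow libraries. Clopper-Pearson intervals (95%) cover counting error only. Gene positions come from GENCODE vM21 on GRCm38, which matched 32235 of the 32287 gene rows. The rule named the 7 members in every comparison, per comparison at most the 3 called genes of a list with the largest fold in each direction, and the 3 genes with the highest correlation to each member. Some genes that the rule names are not reported here. The members and lists were chosen with earlier results of these data known. Alternatives changed the gene filter, scaling, tool, doublet and cell filters, clustering, depth, replicate block and the mice included.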

Additional observations from a re-analysis of the deposited data

How the results depend on the processing

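Over 403 alternative values of 31 results, 20 reversed in direction and 7 lost the threshold. Gains of the threshold are not counted here, because some came from fits with a single mouse in a group. Apart from what a setting leaves out, the cause of a change was not tested. Between stroke and control marrow, the 0 calls became 6 without the gene filter and 1 with DESeq2. Without the gene filter, calls over all genes also rose. They went from 3 to 663 over all heart barcodes, from 0 to 53 in the Ccl12-led cluster and from 0 to 25 in blood type 2 dendritic cells. With a mouse left out, a group held a single mouse, and calls are not counted for those fits. Between heart and blood, the 4 calls became 1 with DESeq2, 6 without the filter, 6 with automatic Scrublet calls, 7 with hashtag doublets alone and 2 without C1q barcodes (an alternative chosen after seeing the data, which left 5 classes), and ranged from 2 (without control replicate 1) to 5 (without stroke replicate 2). Calls over all genes moved too. With hashtag doublets alone they went from 709 to 851 in B cells, from 271 to 364 in NK cells and from 815 to 2501 in neutrophils. Cxcl16 in type 2 dendritic cells was called in 13 of 13 alternatives, with log2 fold changes of 1.96 to 3.099.

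Shares of positive barcodes at 1000 UMIs and unthinned were 6.81% and 9.25% for Cxcl13 and 26.3% and 60.9% for Ccl24 in heart macrophages, 28.0% and 65.3% for Cxcl16 in the Ccl12-led cluster, 17.0% and 55.6% for Cxcr5 in heart B cells, 6.67% and 13.7% for Ccr7 in heart dendritic cells, 10.5% and 21.2% for Cxcr4 in heart neutrophils, and 0% and 0.592% for Cxcr6 in heart NK cells.

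Reversed log2 fold changes between heart and blood were those of Ccr7 in B cells (0.00037 without the filter, 0.0476 without the mouse block, 0.0540 with hashtag doublets alone, and -0.24 to 0.20 with a mouse left out, highest without control replicate 1), Cxcr4 in neutrophils (-0.24 with automatic calls, -0.11 with hashtag doublets alone) and Cxcr5 in neutrophils (-0.37 with hashtag doublets alone). Between stroke and control marrow most reversals came with a mouse left out. Without stroke replicate 2 the sign turned for Cxcr5 in heart B cells (range over the mice left out -0.0885 to 0.57) and blood B cells (-0.17 to 0.21), Ccr7 in blood B cells (-0.49 to 0.17), and Cxcr5 (-0.41 to 2.74), Ccr7 (-0.42 to 2.00) and Cxcr4 (0.0016, range -0.67 to 0.49) over all blood barcodes. Without control replicate 1 it turned for Ccr7 in heart dendritic cells (-1.28 to 0.0784), and for Cxcr4 in blood neutrophils (-0.55 to 0.55) and over all blood barcodes (0.49). Cxcr4 in heart neutrophils ranged from -0.44 (without control replicate 2) to 0.95 and was -0.0186 with automatic calls. Without stroke replicate 1 it turned for Cxcl16 in blood dendritic cells (-1.09 to 0.11) and Cxcr5 over all heart barcodes (-1.57 to 0.32).

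The same-number correlation of deviations was -0.368 in heart and -0.266 in blood. With 2 mice a group, it cannot decide whether replicate numbers pair the mice. With the replicate block the members had 0 calls, and calls among all genes were 43 in heart type 2 dendritic cells (2 without it), 33 in blood classical monocytes (2), 27 in heart classical monocytes (0) and 4 over all heart barcodes (3). With crossed numbers, chosen after seeing the data, they were 92 over all heart barcodes. A fit with hashtag doublets alone for the Ccl12-led cluster and one without C1q barcodes for dendritic cells gave no value.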
